A study of Mus musculus with 1104 samples.

Results

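Gene expression in interscapular brown fat was compared between mice that had eaten a high-fat diet for 4 weeks and mice dissected at 0 days, when the diet began. The comparison used 12 libraries, 6 of mice at 4 weeks and 6 of mice at 0 days, out of 1104 in the series, chosen by organ and time point alone. All were wild-type male C57BL/6 mice whose diet, with 60 kcal% of fat, began at 8 weeks of age. The other groups compared are brown fat at 1 day and at 12 weeks, and inguinal and epididymal fat at 4 weeks and 0 days (12 libraries per depot). The brown fat test was fitted on all 84 brown fat libraries, of 14 time points, which set its filter, scaling and estimate of the spread. No age-matched mice on another diet enter the comparison, so time on the diet, the age of the mice and the date of dissection cannot be told apart. Nothing in the labels pools animals, and no transgene or agent other than the diet is named.

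Brown fat burns fatty acids and glucose to make heat. Its adipocytes carry uncoupling protein Ucp1 in dense mitochondria, and noradrenaline from sympathetic nerves acts on their beta-adrenergic receptors to release fatty acids from lipid droplets and to raise transcription of the thermogenic genes. A high-fat diet supplies much fat and little carbohydrate, which in rodents lowers the making of new fatty acids.

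The 4-week libraries held 10635346 to 15456393 counts and the 0-day libraries 11295369 to 21788433. The depot matched its label: Ucp1 lay between 5024 and 11118 CPM (counts scaled to the size of the library) in the 12 brown fat libraries, against 0.394 to 147 CPM in inguinal and 0 to 8.96 CPM in epididymal libraries, while the white fat gene Hoxc9 had 2 counts over all 12 brown fat libraries. Some libraries stood apart. Among the 4-week libraries, replicates 2 and 3 were high in Hspa1a, and replicates 3 and 6 were high in Ccl2. Among the 0-day libraries, replicates 1 and 2 were low in the glucocorticoid-induced gene Fkbp5, at 12.2 and 8.73 CPM against 36.2 to 159 CPM in the other four. Skeletal muscle markers summed to between 91.0 and 2122 CPM at 4 weeks and between 91.4 and 4420 CPM at 0 days, so muscle RNA was uneven within both groups. None of the 16 muscle genes passed the test, and their median log2 fold change was -1.17. That median was 0.80 with voom and quality weights and -0.24 without 4-week replicate 2 and 0-day replicate 6. The muscle sums had medians of 469 CPM at 4 weeks and 350 CPM at 0 days. At 0 days, replicates 5 and 6 had the highest, 3877 and 4420 CPM.

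Of 13196 genes tested, 1040 were higher and 892 lower at 4 weeks at an adjusted p under 0.05 (edgeR quasi-likelihood test, Benjamini-Hochberg), which is 14.6% of the genes in either direction, 7.88% higher and 6.76% lower. A change of at least 2-fold was called for 339 genes (2.57%), 183 higher (1.39%) and 156 lower (1.18%). The median log2 fold change of all genes was 0.0120. In 1007 genes (7.63%) the CPM of the groups did not overlap. Below, a log2 fold change is 4 weeks over 0 days and is given ± its SE, and rose, fell or called refers to that test. Counts of list members are to be read beside the shares of all genes, 7.88% higher and 6.76% lower. In whole tissue, fewer cells of a type and less RNA per cell cannot be told apart.

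**Figure D1:**
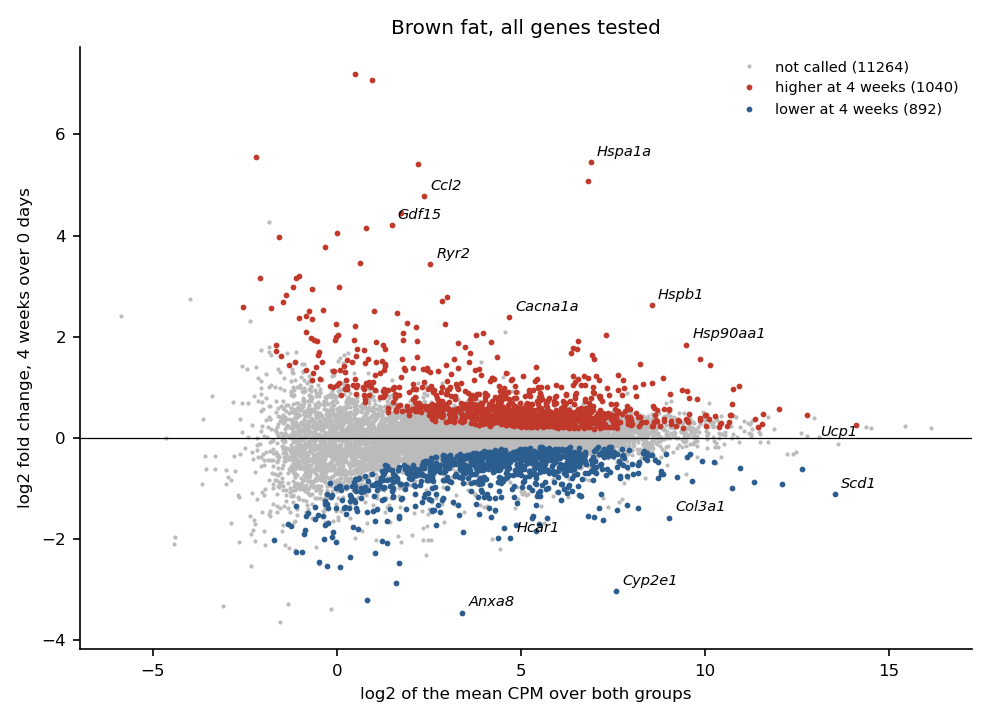
Each point is 1 of the 13196 genes tested, with the log2 of its mean CPM over both groups on the x axis and its log2 fold change, 4 weeks over 0 days, on the y axis; red points were called higher and blue points lower. Hspa1a and Ccl2 lie far above 0, Cyp2e1 and Anxa8 far below it, and Ucp1 close to 0.

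Most heat shock chaperones, which refold and hold other proteins, rose. Of 14 members tested, 11 rose and none fell (8 to 11 with 1 library left out, 7 with voom and quality weights), with a median log2 fold change of 0.98, beside 7.88% of all genes higher. Both HSP90 genes were higher in each 4-week library than in any 0-day library. Hsp90aa1, the inducible cytosolic HSP90, ran from 799 through a median of 1040 to 1760 CPM at 4 weeks, against 255, 329 and 369 CPM at 0 days, a log2 fold change of 1.84 ± 0.19 (adjusted p 2.69e-11). Hsp90ab1, the constitutive form, ran from 2133 through 2541 to 3136 CPM, against 1166, 1267 and 1395 CPM (1.03 ± 0.10, adjusted p 3.97e-12). Hspb1, a small heat shock protein that holds unfolded proteins, was at 313, 458 and 1392 CPM at 4 weeks, against 88.6, 92.5 and 135 CPM at 0 days (2.62 ± 0.34). Hsph1, the HSP110 exchange factor of HSP70, rose by 2.04 ± 0.33 and Hspa8, the constitutive HSP70, by 0.96 ± 0.18. The mitochondrial chaperonins Hspd1 (0.44 ± 0.09) and Hspe1 (0.83 ± 0.30, adjusted p 0.0493) rose as well, Hspe1 on a call that ended when any 1 of 8 libraries was left out (0.56 to 0.88) and with a replicate block (0.82, adjusted p 0.0532). Bag3 (0.10 ± 0.19), Chordc1 (0.44 ± 0.17) and Cryab (0.46 ± 0.44) were not called; Chordc1 was with offsets for GC content and length (0.63).

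The inducible HSP70 genes differed from this pattern between libraries. Hspa1a had 4.70, 889, 486, 1.72, 2.36 and 20.5 CPM in 4-week replicates 1 to 6, against 2.81 to 8.22 CPM at 0 days, so replicates 2 and 3 carried its log2 fold change of 5.46 ± 1.08 and the groups overlapped. Without both of them it was 0.50 (adjusted p 0.82), and in the fit of the 12 libraries alone it was not called (adjusted p 0.0534). Hspa1b, a near-identical neighbour that may share reads with Hspa1a in such counting, had a log2 fold change of 5.08 ± 1.02. Without those libraries its value was 0.58 (adjusted p 0.774). Leaving out 4-week replicate 2 alone gave 4.25 for Hspa1a and 4.10 for Hspa1b. Without 4-week replicates 2 and 3, 6 of the 14 chaperones rose and the median was 0.51, and Hspb1 still rose by 1.97. With voom and quality weights neither HSP70 gene was called, at 0.83 and 0.97.

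Promoters of chaperones are shown because 11 of the 14 genes were called in the same direction. Heat shock elements are repeats of GAA and its complement, alternating in direction at fixed spacing. The windows are 300 bases around the start of the gene in RefSeq (GRCm38.p6), most of them upstream of it, 5′ to 3′ on the gene's strand, and capitals mark each match to GAANNTTC or TTCNNGAA. Hspb1 lies on the plus strand at chr5:135887669-135887968, Hsph1 on the minus strand at chr5:149636287-149636586, Hspe1 on the plus strand at chr1:55087898-55088197 and Hspa1a on the minus strand at chr17:34972107-34972406.
Hspb1: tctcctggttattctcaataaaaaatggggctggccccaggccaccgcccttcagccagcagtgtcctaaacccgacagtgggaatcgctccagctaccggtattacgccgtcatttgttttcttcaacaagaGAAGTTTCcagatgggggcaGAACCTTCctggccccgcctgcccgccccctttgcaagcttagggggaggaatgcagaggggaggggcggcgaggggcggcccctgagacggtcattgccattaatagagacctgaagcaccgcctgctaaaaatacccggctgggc
Hsph1: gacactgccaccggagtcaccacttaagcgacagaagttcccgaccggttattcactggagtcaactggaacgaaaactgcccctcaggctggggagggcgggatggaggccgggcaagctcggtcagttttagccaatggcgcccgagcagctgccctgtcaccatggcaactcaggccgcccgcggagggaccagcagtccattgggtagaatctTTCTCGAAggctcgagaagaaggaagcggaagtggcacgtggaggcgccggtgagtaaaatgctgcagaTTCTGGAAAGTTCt
Hspe1: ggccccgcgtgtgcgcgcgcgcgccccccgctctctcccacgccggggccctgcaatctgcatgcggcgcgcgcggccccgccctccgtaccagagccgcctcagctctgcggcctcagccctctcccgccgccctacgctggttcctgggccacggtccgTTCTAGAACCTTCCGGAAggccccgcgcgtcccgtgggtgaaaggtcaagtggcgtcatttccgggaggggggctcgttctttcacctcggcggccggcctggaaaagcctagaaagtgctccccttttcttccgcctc
Hspa1a: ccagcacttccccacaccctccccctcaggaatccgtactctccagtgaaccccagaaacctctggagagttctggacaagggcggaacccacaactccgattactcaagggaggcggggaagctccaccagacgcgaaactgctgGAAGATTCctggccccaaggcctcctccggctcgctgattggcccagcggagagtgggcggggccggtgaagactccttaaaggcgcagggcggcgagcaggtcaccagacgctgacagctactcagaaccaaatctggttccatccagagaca
Of 10 chaperones with an entry, 9 held GAANNTTC or TTCNNGAA and 4 held the longer GAANNTTCNNGAA or TTCNNGAANNTTC (Hsph1, Hspe1, Hspd1 and Chordc1). The shorter motifs are their own reverse complements and the longer ones those of each other, so both strands were covered. A symbol counted where any of its windows held the motif, and the counts are not of independent windows: those of Hspe1 and Hspd1 are on opposite strands of the same stretch, with 285 bases in common, so the same elements are counted for both, and those of Hspa1a and Hspa1b are identical at 98.7% of positions. Of all 27025 symbols with a window of this length, 17% held the shorter and 0.662% the longer. Of the 10484 of them that were tested, the shares were 14.1% and 0.572%. The list was chosen as heat shock genes, so its motif counts follow from that choice and use no value of this comparison. What raised these genes was not tested. The longer motif contains the shorter, and overlapping matches run together in the capitals. Chordc1, which held the longer one, was not called, and Hspb1, which held only the shorter, had the higher change.

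**Figure D2:**
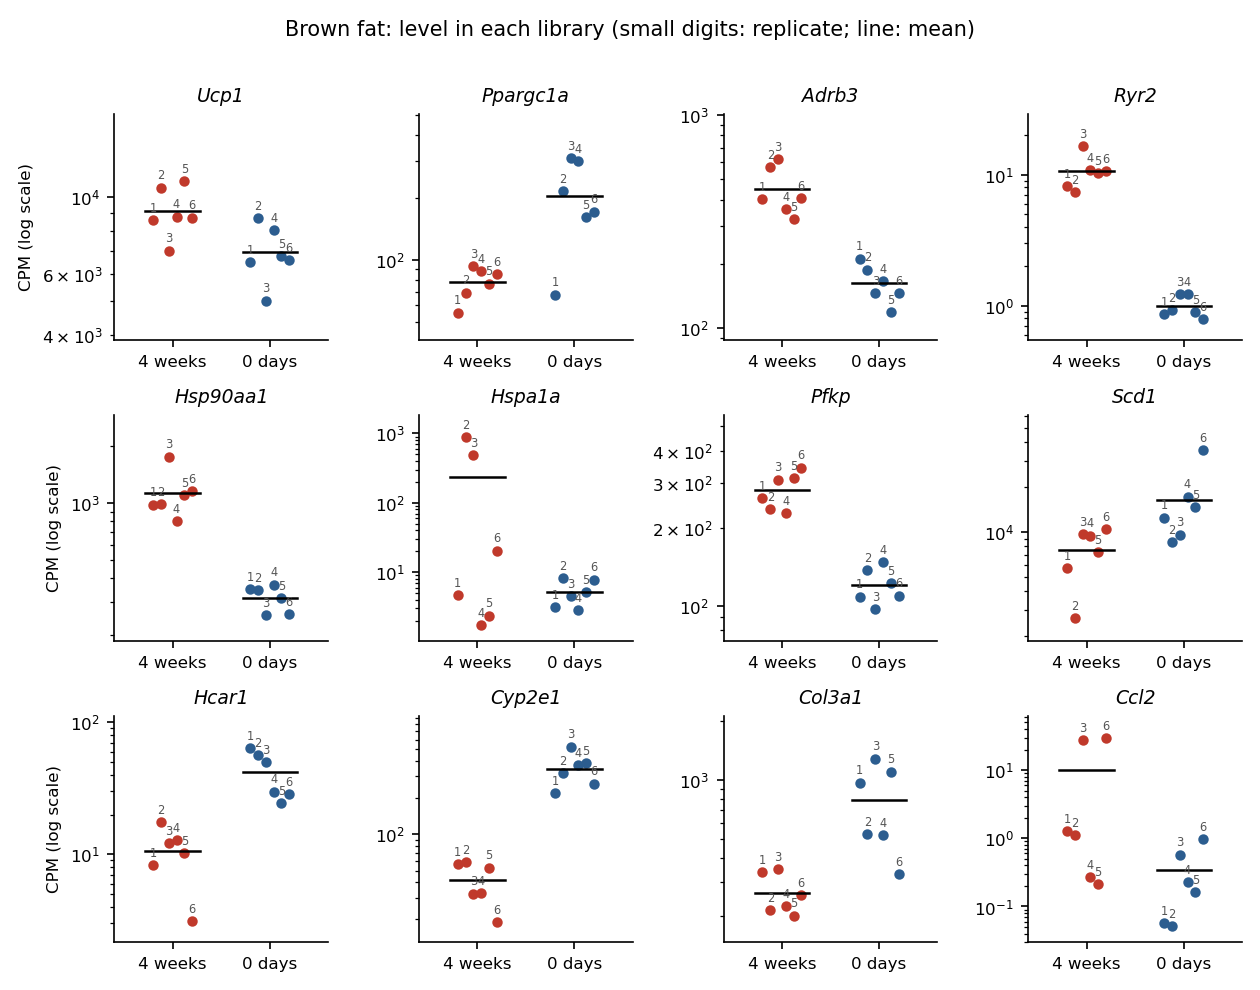
Each panel shows the CPM of a gene on a log axis in the 6 libraries at 4 weeks (left, red) and the 6 at 0 days (right, blue); small digits are replicate numbers and lines are means. Ryr2, Adrb3, Hsp90aa1, Pfkp, Hcar1 and Cyp2e1 show no overlap between groups, and Hspa1a and Ccl2 are high in 2 of the 6 libraries at 4 weeks.

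Among thermogenic and brown identity genes, 3 of 23 tested rose and 3 fell, beside 7.88% of all genes higher and 6.76% lower, and the median was 0.09. Ucp1 itself was at 7002, 8752 and 11118 CPM at 4 weeks (lowest, median and highest) and 5024, 6669 and 8707 CPM at 0 days; its log2 fold change of 0.40 ± 0.22 was not called (adjusted p 0.229), although it was called with voom and quality weights (0.40, adjusted p 0.00718) and with offsets for GC content and length (0.36, adjusted p 0.0226). Adrb3, the main beta-adrenergic receptor of rodent adipocytes, ran from 323 through 405 to 618 CPM, against 119, 156 and 212 CPM (1.45 ± 0.17, adjusted p 6.81e-10). Adrb1, another receptor of this family, rose by 0.62 ± 0.20, a call that ended when any 1 of 4 libraries was left out (0.50 to 0.57). Otop1, a proton channel of brown adipocytes, rose by 0.41 ± 0.08. The list's count of rises was 7 with voom and quality weights and 5 with offsets for GC content and length. The 3 genes that fell were Ppargc1a, Esrrg and Prdm16. Ppargc1a, the coactivator of mitochondrial genes, was at 55.4, 80.8 and 92.8 CPM, against 67.7, 193 and 310 CPM (-1.39 ± 0.34, adjusted p 0.00246), and only 0-day replicate 1 lay within the 4-week range. Esrrg, an orphan receptor of oxidative genes, fell likewise (-1.40 ± 0.33). Prdm16, which sets brown fate, had a log2 fold change of -0.59 ± 0.21 (adjusted p 0.0418); leaving out any 1 of 9 libraries ended the call, with values from -0.61 to -0.50. Dio2 (-0.80 ± 0.33), Cidea (0.12 ± 0.26) and Elovl3 (0.09 ± 0.38) were not called.

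The 10 highest changes included genes of ion channels. Ryr2, the calcium release channel of the heart's sarcoplasmic reticulum, was at 7.37, 10.4 and 16.6 CPM at 4 weeks, against 0.791, 0.906 and 1.22 CPM at 0 days, a log2 fold change of 3.44 ± 0.29 (adjusted p 8.23e-15). It lies on the minus strand at chr13:11553102-12106945 (GENCODE M21, GRCm38) and was the one called gene of 12 in the list of creatine and calcium cycling. Cacna1a, the pore of a voltage-gated calcium channel, rose by 2.38 ± 0.23 and Hcn2, a pacemaker channel, by 2.26 ± 0.28. Also among the 10 highest were Ak4 (2.78 ± 0.33), a mitochondrial adenylate kinase, Gldn (2.70 ± 0.37), which clusters sodium channels at nodes of nerve, and Arhgef19 (2.07 ± 0.22), a guanine nucleotide exchange factor. None of these 6 genes overlapped between groups.

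Genes of fatty acid synthesis fell or did not pass. Of 19 tested, none rose and 5 fell, with a median of -0.47, beside 6.76% of all genes lower. Scd1, which desaturates stearate, was at 2641, 8403 and 10494 CPM, against 8541, 13600 and 35349 CPM (-1.11 ± 0.32, adjusted p 0.00965). The groups overlapped, and without 0-day replicate 6, the highest, the change was -0.72 and not called; nor was it called in the fit of the 12 libraries alone (-1.12, adjusted p 0.067). Elovl6, which elongates palmitate, fell by 0.80 on the log2 scale (SE 0.17), Elovl5 by 0.57 (SE 0.13), Fads1 by 0.50 (SE 0.14) and Acsl5 by 0.59 (SE 0.21), the last of which was not called when any 1 of 9 libraries was left out (-0.59 to -0.50). Without 0-day replicate 6, and without 4-week replicates 2 and 3, 3 genes of the list fell. The first steps, Acly (-0.54 ± 0.39), Acaca (-0.73 ± 0.28) and Fasn (-0.29 ± 0.36), were not called, and neither were their regulators Srebf1 (0.01 ± 0.17) and Mlxipl (0.27 ± 0.15). Acaca was called in the fit of the 12 libraries alone (-0.74, adjusted p 0.0469) and Mlxipl with voom and quality weights (0.34, adjusted p 0.0123).

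Fat handling moved in both directions. Fabp3, the heart-type fatty acid binding protein, was at 1180, 1511 and 2505 CPM, against 513, 554 and 839 CPM (1.43 ± 0.28), and Plin2, a coat of lipid droplets, rose by 0.79 ± 0.16, both without overlap. Lpl, which frees fatty acids from lipoproteins, fell by 0.61 on the log2 scale (SE 0.19) and the transporter Slc27a1 by 0.49 (SE 0.15), also without overlap. Without 4-week replicate 2 neither was called (-0.51 for Lpl and -0.41 for Slc27a1), nor was Lpl without 0-day replicate 4 (-0.57). Angptl4, an inhibitor of Lpl, had 0.60 ± 0.16, which was 0.34 and not called without 4-week replicate 2. In triglyceride synthesis and lipolysis 4 of 17 rose and 2 fell (2 to 4 and 0 to 2 with 1 library left out), among them Dgat2 (-0.61), an enzyme of the last step of triglyceride synthesis, which was not called when any 1 of 5 libraries was left out (-0.61 to -0.50). Fatty acid oxidation had 10 of 28 genes higher and 1 lower, at a median of 0.23. Of all genes, 7.88% were higher and 6.76% lower. The 10 changes were small, from 0.20 for Acadl to 0.48 for Hadhb, and 5 genes rose without 4-week replicate 2. Acadl and Hadhb are enzymes of the first dehydrogenation and of the last cleavage in mitochondrial oxidation. Cpt1b (0.05 ± 0.21), the muscle and brown fat entry step, and Pdk4 (0.29 ± 0.16), which shuts off pyruvate oxidation, were not called. Of 32 nuclear genes of the respiratory chain, 31 had positive values with a median of 0.24, but 2 passed the test, Atp5b (0.44) and Ndufv1 (0.36). With voom and quality weights 9 of the 32 rose, with offsets for GC content and length 8, and without 4-week replicates 2 and 3 1, when Ndufv1 was not called (0.28, adjusted p 0.0509). The median was 0.09 without 4-week replicate 2 and 0-day replicate 6, the libraries least correlated with their groups.

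Of 27 genes of glucose uptake and glycolysis 6 rose and 3 fell, at a median of 0.21, and 1 fell without 4-week replicates 2 and 3. Of all genes, 7.88% were higher and 6.76% lower. Pfkp, the platelet-type phosphofructokinase, was at 230, 286 and 345 CPM, against 96.7, 116 and 148 CPM (1.23 ± 0.13, adjusted p 6.64e-11), Pfkl, the liver type, at 858, 960 and 1074 CPM, against 395, 536 and 553 CPM (0.93 ± 0.10), and the hexokinase Hk1 at 42.3, 58.3 and 69.9 CPM, against 22.8, 26.3 and 33.8 CPM (1.12 ± 0.20). None of these overlapped. Slc2a1, the basal glucose transporter, rose by 0.65 ± 0.23, a call that ended when any 1 of 8 libraries was left out (0.45 to 0.67), and Slc2a4, the insulin-responsive one, was at -0.01 ± 0.11. Hcar1, the lactate receptor that restrains lipolysis, was at 3.12, 11.2 and 17.5 CPM, against 24.5, 39.7 and 63.5 CPM (-1.99 ± 0.36, adjusted p 3.35e-05), and Pfkfb3, which makes an activator of phosphofructokinase, fell by 0.86 on the log2 scale (SE 0.21) and was at -0.63, not called, without 4-week replicates 2 and 3. In insulin and adrenergic signalling, 5 of 18 rose and 5 fell (4 to 5 and 3 to 6 with 1 library left out); the insulin pathway genes Irs1 (-0.78 ± 0.26), Pik3r1 (-1.09 ± 0.30) and Foxo1 (-1.12 ± 0.33) were lower. Irs1 was not called when any 1 of 5 libraries was left out (-0.74 to -0.56), and without 0-day replicates 1 and 2 it was at -0.16 (adjusted p 0.746). Pik3r1 was not called without 0-day replicates 1 and 2 either (-0.87), nor Foxo1 without 4-week replicates 2 and 3 (-0.86).

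In the TCA cycle 4 of 16 genes rose and 1 fell, but 2 to 6 rose with 1 library left out, 2 without 4-week replicates 2 and 3, 7 with offsets for GC content and length and 9 with voom and quality weights. Idh3g, a subunit of the NAD-dependent isocitrate dehydrogenase, averaged 1186 ± 186 CPM at 4 weeks and 865 ± 75.4 CPM at 0 days (SD, n = 6 each; 0.46 ± 0.10), and the fumarase Fh1 rose by 0.31 ± 0.07, while Pcx, which carboxylates pyruvate, was at -0.33 ± 0.10. None of these overlapped, and the Pcx call ended without 0-day replicate 6 (-0.29). In the breakdown of branched-chain amino acids 2 of 18 rose and 3 fell, and 7 fell with DESeq2 and with voom. Bcat2, the mitochondrial transaminase at the start of that pathway, averaged 133 ± 31.4 CPM at 4 weeks and 212 ± 37.8 CPM at 0 days (-0.68 ± 0.13), and Ivd, an enzyme of leucine breakdown, was at -0.45 ± 0.10. In cholesterol synthesis 2 of 23 rose (5 with voom) and 1 fell, near the shares of all genes, 7.88% higher and 6.76% lower. Voom called 1706 genes higher in all, against 1040 in the main fit. Insig1 (0.83 ± 0.19), which holds the sterol regulators in the endoplasmic reticulum, was among those that rose. The gene that fell was Acat2 (-0.51 ± 0.10), which makes acetoacetyl-CoA. Among 12 coats of the lipid droplet Plin2 was the one call; Cidec, which fuses droplets, was at -0.20 ± 0.11 and not called, although it was with offsets for GC content and length (-0.31, adjusted p 0.00629) and with voom (-0.23, adjusted p 0.0257), when 2 of the 12 fell. Antioxidant genes of the NRF2 response gave 3 of 15 higher, with the thioredoxin reductase Txnrd1 at 0.55 ± 0.12, and 1 lower, the glutathione transferase Gsta3 (-1.66 ± 0.37). Endoplasmic reticulum stress genes gave 1 of 18 higher and 1 lower, Sdf2l1 (0.78 ± 0.27) and Dnajb9 (-0.32 ± 0.11), again near the shares of all genes. Sdf2l1 lost its call when any 1 of 5 libraries was left out (0.61 to 0.74). The Dnajb9 call ended when any 1 of 7 libraries was (-0.31 to -0.28).

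A list of lipid-sensing receptors, other nuclear receptors and further transcription factors gave 1 of 18 higher and 5 lower (3 to 5 lower with 1 library left out). Of all genes, 7.88% were higher and 6.76% lower. Not all of the 5 lower members are named in this text. Those named, Nr4a3, Klf15, Nr4a2 and Esrrg, are orphan receptors or other factors. Ppard, a fatty acid receptor, averaged 43.1 ± 6.95 CPM at 4 weeks and 27.5 ± 4.04 CPM at 0 days (SD, n = 6 each), a log2 fold change of 0.65 ± 0.15 without overlap. Nr4a3, an orphan receptor, was at -1.58 ± 0.44 and Klf15, a glucocorticoid-induced factor in the same list, at -0.73 ± 0.22, which was not called without 0-day replicate 4 (-0.63) or 4-week replicate 3 (-0.60). Pparg, the main regulator of adipocyte differentiation, was not called (0.23 ± 0.12, adjusted p 0.197). Grb14, an inhibitor of the insulin receptor, averaged 60.5 ± 15.8 CPM at 4 weeks and 27.02 ± 5.38 CPM at 0 days (1.16 ± 0.20), and the corepressor Nrip1, in a white adipocyte list of which 2 of 10 rose and 4 fell, 16.1 ± 3.09 CPM at 4 weeks and 29.3 ± 3.26 CPM at 0 days (-0.87 ± 0.17).

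Endocrine genes were split, 5 of 19 higher and 7 lower (3 to 5 and 4 to 7 with 1 library left out). The shares of all genes were 7.88% higher and 6.76% lower. Leptin, Lep, the satiety hormone of fat, was at 8.19, 16.1 and 36.0 CPM, against 3.06, 6.80 and 8.56 CPM (1.5 ± 0.50, adjusted p 0.0321), and lost its call when any 1 of 5 libraries was left out (1.16 to 1.51). Gdf15, a stress hormone that lowers appetite, had a log2 fold change of 4.21 ± 0.86 at a highest level of 20.1 CPM in replicate 2; without replicate 2 it was 3.04, and without 4-week replicates 2 and 3 1.84 and not called. Lower were Agt (-2.08 ± 0.43), the precursor of angiotensin, Igf1 (-1.30 ± 0.25), the growth factor, Retn (-1.04 ± 0.26), Cfd (-1.0 ± 0.36) and Nrg4 (-0.66 ± 0.16), a hormone that brown fat secretes; the Cfd call ended when any 1 of 9 libraries was left out (-0.98 to -0.86). Adipoq, adiponectin, was at -0.46 ± 0.15 (adjusted p 0.0341) and lost its call when any 1 of 5 libraries was left out (-0.45 to -0.40 in these).

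**Figure D3:**
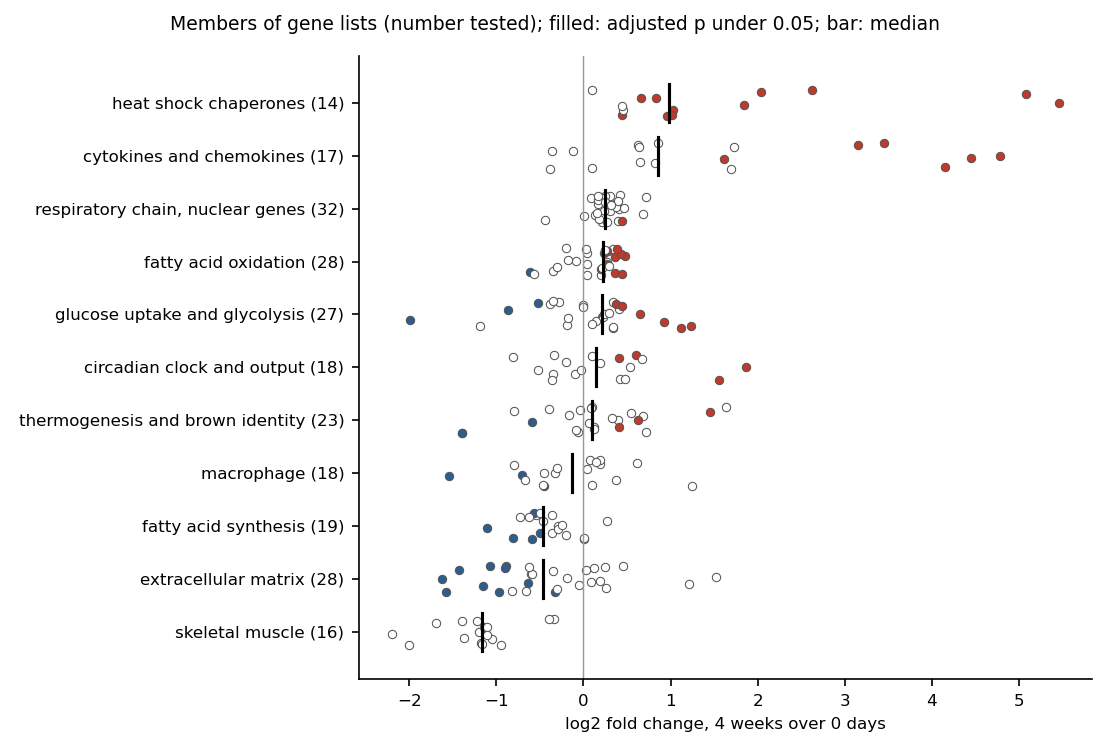
Each circle is a gene of the list named at left (number tested in parentheses), placed by its log2 fold change, 4 weeks over 0 days; filled red and blue circles passed the test and bars are list medians. Heat shock chaperones lie right of 0 and called extracellular matrix genes left of it. All 16 muscle genes lie below 0 and none is filled, although their median was above 0 with voom and quality weights.

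Of 28 extracellular matrix genes, 10 were lower and none higher, with a median of -0.47, beside 6.76% of all genes lower. The other 18 were not called, and 9 of the 28 had positive values. Col3a1, a fibrillar collagen, was at 201, 241 and 348 CPM, against 329, 747 and 1286 CPM (-1.58 ± 0.27, adjusted p 1.55e-05). Col1a1 (-1.62 ± 0.33) and Col1a2 (-1.43 ± 0.26), the chains of type I collagen, fell by a similar size, and the levels of Col1a2 did not overlap. Macrophage genes gave 3 of 18 lower and none higher (1 to 3 lower with 1 library left out, and 2 lower and 1 higher with a replicate block), among them the mannose receptor Mrc1 (-0.71 ± 0.25) and Csf1r (-0.45 ± 0.16), the receptor of the main macrophage growth factor. The Mrc1 call ended when any 1 of 7 libraries was left out (-0.69 to -0.52) and the Csf1r call when any 1 of 9 was (-0.48 to -0.33) and with a replicate block (-0.44, adjusted p 0.0511). The macrophage markers summed to 273 to 417 CPM at 4 weeks and 296 to 639 CPM at 0 days (exact permutation p 0.0281, adjusted over 11 lists 0.0774), and no marker was at 0 in all libraries. Adipocyte progenitor markers, of cells that make matrix, summed to 367 to 465 CPM at 4 weeks and 373 to 555.3 CPM at 0 days (exact permutation p 0.327); their part in the matrix result was not tested.

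Chemokine genes rose on a few libraries. Of 17 genes, 6 were called higher and none lower (4 to 8 higher with 1 library left out), all of them at low levels. The share of all genes higher was 7.88%. Ccl2, which draws monocytes, had 1.26, 1.10, 27.4, 0.271, 0.214 and 29.7 CPM in 4-week replicates 1 to 6, against 0.0511 to 0.977 CPM at 0 days (4.78 ± 0.92, adjusted p 8.95e-05), and replicates 3 and 6 also led Ccl7, Cxcl1 and Il33; the Il33 call ended when any 1 of 4 libraries was left out (1.14 to 1.51). With voom and quality weights Ccl2 was at 2.92 and not called, and 1 gene of the list rose. In the fit of the 12 libraries alone 0 rose, but Ccl2, Ccl7, Cxcl1 and Il1b did not pass its filter on low counts. They were therefore not tested there, while Il33 was tested and not called (1.62, adjusted p 0.0882). Without 0-day replicate 6 Ccl2 was at 5.59, and without 4-week replicate 3 or 6 at 4.19 or 4.05. Il1b, a cytokine of activated myeloid cells, was at 3.45 ± 0.70, and 2.38 (adjusted p 0.0134) without replicate 3. Interferon response genes gave 1 of 19 lower and none higher. MHC class II (0 of 7), cell cycle (0 of 20) and endothelial genes (0 of 13) gave no call in either direction.

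The 10 lowest genes had other roles. Anxa8, a membrane-binding annexin, was at 0.904, 1.62 and 3.63 CPM, against 6.14, 21.2 and 30.2 CPM (-3.46 ± 0.44, adjusted p 9.11e-09). Cyp2e1, a cytochrome P450 that oxidizes ethanol and acetone, was at 18.9, 42.8 and 59.1 CPM, against 218, 344 and 526 CPM (-3.04 ± 0.42, adjusted p 8.72e-08), and lies on the plus strand at chr7:140763739-140774987. Neither overlapped. Slc7a8, a transporter of neutral amino acids, fell by 1.71 on the log2 scale (SE 0.45; -1.48 and not called without 4-week replicates 2 and 3) and Vat1l by 1.98 (SE 0.24). Fkbp5 (-1.84 ± 0.59) lost its call when any 1 of 5 libraries was left out (-1.79 to -1.36), and Nr4a2 (-1.73 ± 0.43), an orphan receptor, was not called without 0-day replicate 2 (-1.15) or without 0-day replicates 1 and 2 (-0.63). Clock genes gave 4 of 18 higher and none lower (1 lower with a replicate block), beside 7.88% of all genes higher. Arntl, which drives the clock, was at 9.22, 14 and 22.8 CPM, against 2.89, 4.28 and 5.05 CPM (1.87 ± 0.38). Markers of nerve and Schwann cells summed to 297 to 396 CPM at 4 weeks, against 202 to 258 CPM at 0 days (exact permutation p 0.00216, the smallest the test can give, adjusted 0.0119), and the list's median log2 fold change was 0.0022, with 4 of 8 tested genes above 0. S100b, which adipocytes also make, averaged 190 ± 24.7 CPM at 4 weeks and 64.2 ± 16.1 CPM at 0 days (SD, n = 6 each; 1.57 ± 0.17), while the sums had medians of 356 CPM at 4 weeks and 230 CPM at 0 days. The other 7 genes lay between -0.19 (Pmp22) and 0.52 (Sox10) and were not called, and 1 marker of the list, Npy, was at 0 in all libraries. The lipid-associated macrophage list, which holds Lpl, Plin2 and other genes that adipocytes also make, summed to 8965 to 10224 CPM at 4 weeks and 10878 to 13086 CPM at 0 days (exact permutation p 0.00216, adjusted 0.0119), with 1 of 18 genes higher and 2 lower. Lymphocyte markers summed to 3.5 to 6.10 CPM at 4 weeks and 4.37 to 7.96 CPM at 0 days (exact permutation p 0.0195, adjusted 0.0714) and red cell markers to 260 to 625 CPM at 4 weeks and 213 to 341 CPM at 0 days (exact permutation p 0.0433, adjusted 0.0952). The exact permutation p was 0.251 for smooth muscle, 0.307 for endothelial, 0.794 for lymph node, 0.848 for skeletal muscle and 0.0996 for white depot markers. No call was made among 7 lymphocyte, 2 lymph node, 9 smooth muscle and 5 red cell genes, and none of the white depot markers passed the filter on low counts.

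The time at which these differences appeared varied, as read against brown fat at 1 day and at 12 weeks, which share the 4-week libraries with the main comparison. Against 1 day, 633 genes were higher at 4 weeks and 430 lower (8.06% in either direction, 4.8% higher and 3.26% lower), and from 4 to 12 weeks 1228 rose and 1099 fell (17.6% in all, 9.31% and 8.33%). Ryr2 and Cacna1a differed from 1 day too (2.31 and 2.47), and Ryr2 went on to rise by 1.41 from 4 to 12 weeks. Its means were 0.983, 2.14, 4.30, 7.52 and 10.6 CPM at 0 days, 1 day, 1 week, 2 weeks and 4 weeks and 28.2 CPM at 12 weeks. The collagens also differed from 1 day, Col3a1 by -1.62. Other genes stood near their 4-week level at 1 day. Pfkp had means of 238 CPM at 1 day and 283 CPM at 4 weeks (0.25, adjusted p 0.273), Hsp90aa1 916 and 1128 CPM (0.30, adjusted p 0.393) and Cyp2e1 55.1 and 42.1 CPM (-0.39, adjusted p 0.671), tests that do not show equal levels. Lep reached 194 CPM at 12 weeks, 3.44 above 4 weeks on the log2 scale. Hspa1a averaged 447 ± 687 CPM at 1 week and 234 ± 374 CPM at 4 weeks (± SD), and at most 27.2 CPM at the other 12 times. Both SDs exceeded their means, and at 4 weeks replicates 2 and 3 held the high values.

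**Figure D4:**
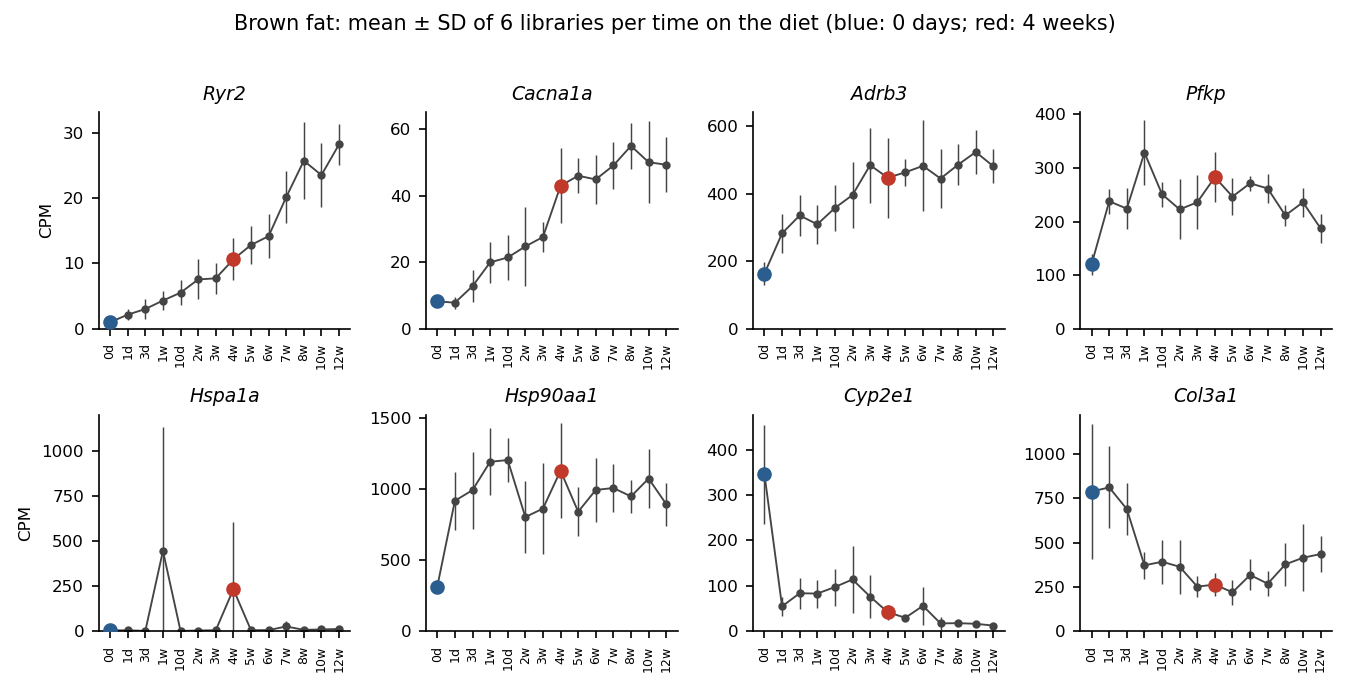
Mean CPM ± SD of 6 brown fat libraries at each of 14 times on the diet, evenly spaced in their order; the blue point is 0 days and the red point 4 weeks, and bars that pass below 0 are cut at the axis. Ryr2 climbs to 28.2 CPM at 12 weeks and Cyp2e1 is low from 1 day on. The mean of Hspa1a is high at 1 week and 4 weeks, with an SD larger than the mean at both.

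Part of the change was tested for a difference from white fat, in fits of both depots with an interaction of depot and time. Against inguinal fat, 1174 genes changed more upward in brown fat and 1491 less (18.8% of 14154 in all, 8.29% and 10.5%), and against epididymal fat 1704 and 1861 (24.8% of 14389 in all, 11.8% and 12.9%). Of the chaperones, 9 of 14 differed upward from inguinal and 9 of 14 from epididymal fat, none downward. Of clock genes, 6 of 18 differed upward and 1 downward from inguinal fat, and 12 of 18 upward and 1 downward from epididymal fat. The white depots moved here: 2 clock genes rose and 12 fell in epididymal fat (median -0.64). In inguinal fat 3 rose and 4 fell (median -0.30), while in the main fit of brown fat 4 rose and 0 fell (median 0.14). Stip1, which links HSP70 to HSP90, changed by 1.63 ± 0.13 in brown fat and 0.04 ± 0.12 in inguinal fat (difference 1.59 ± 0.18, adjusted p 7.98e-06), and 0.21 ± 0.12 in epididymal fat (difference 1.42 ± 0.18). Adrb3 differed by 1.52 ± 0.30 and 1.94 ± 0.27, Pfkl by 0.94 ± 0.19 and 0.86 ± 0.13, and Parm1 by 1.76 ± 0.18 and 1.32 ± 0.16 from inguinal and epididymal fat. Ryr2 differed from inguinal fat (2.95 ± 0.39) but its difference from epididymal fat, 1.44 ± 0.66, was not called (adjusted p 0.11). Axin2, a target and brake of Wnt signalling, rose by 1.14 ± 0.13 in brown fat and fell by 0.80 on the log2 scale in epididymal fat (difference 1.95 ± 0.18). Egln1, an oxygen-sensing hydroxylase, changed by 1.07 ± 0.17 in brown fat, by 0.01 ± 0.17 in inguinal and by 0.00 in epididymal fat.

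Matrix genes differed the other way, 19 of 28 lower in brown than inguinal fat and 14 of 28 lower than epididymal fat, none higher. The shares of all genes lower were 10.5% against inguinal and 12.9% against epididymal fat. Col3a1 changed by -1.59 ± 0.30 in brown fat and 0.61 ± 0.29 in inguinal fat (difference -2.20 ± 0.41, adjusted p 0.000933). For macrophage genes the change was lower in 6 of 19 against each depot. In inguinal fat 4 of them rose and in epididymal fat 5, and 0 fell in either, while 3 of 18 fell in the main fit of brown fat. Scd1 differed by -1.97 ± 0.49 from inguinal and -2.47 ± 0.42 from epididymal fat, where it changed by 1.36 ± 0.30. Hipk2, a nuclear kinase, was not called in brown fat in the joint fit with inguinal fat (-0.54 ± 0.23) and changed by 2.52 ± 0.24 in inguinal and 3.15 ± 0.24 in epididymal fat, so most of its difference lay in the white depots. Zbtb20, a transcriptional repressor, changed by -0.62 ± 0.11 in brown and 0.90 ± 0.11 in inguinal fat.

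**Figure D5:**
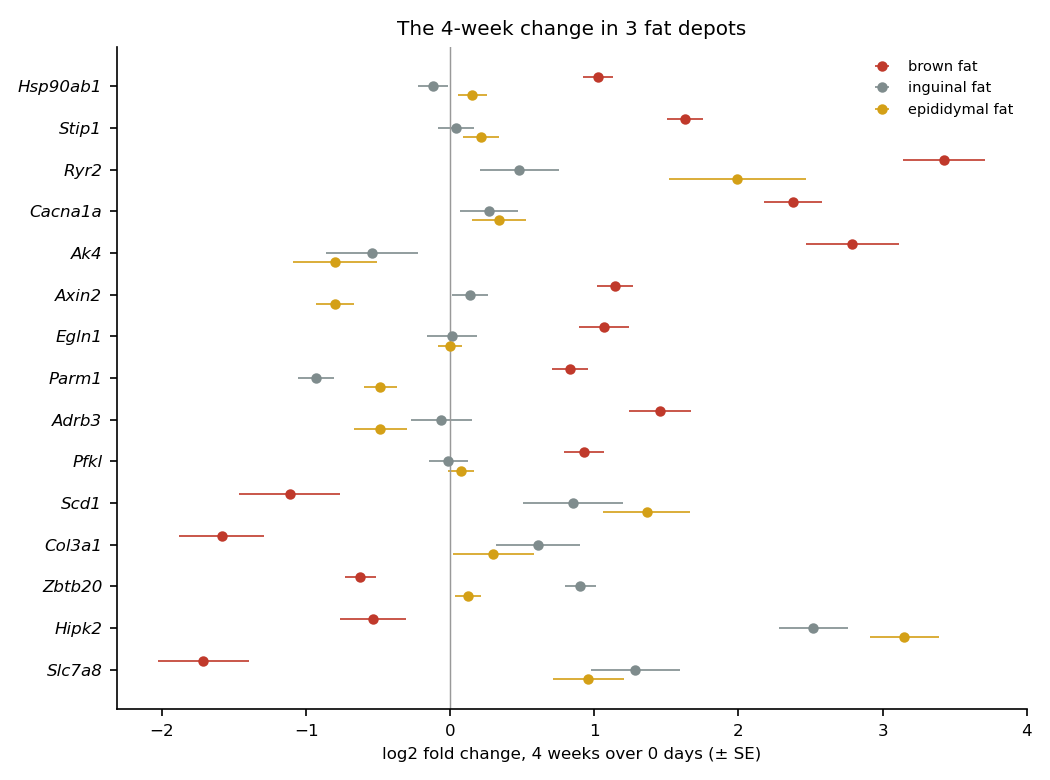
Log2 fold change, 4 weeks over 0 days, ± SE of genes named in the text, in brown (red), inguinal (grey) and epididymal fat (yellow). Hsp90ab1, Stip1 and Cacna1a lie higher in brown fat than in the other depots, and Scd1 and Col3a1 are below 0 in brown fat and above it in the others.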

How the data were processed

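Poly(A) RNA of each organ gave stranded libraries, per the labels' protocols. The authors deposited raw counts, whole numbers in 1 row for each of 20646 gene symbols. The submitters' processing notes name featureCounts 1.6.3, SAMtools 1.9, HISAT2 2.1.0, Trimmomatic 0.38, FastQC 0.11.7 and build GRCm38 (mm10). Neither annotation nor strand setting is given in the sources used here; overlapping and near-identical genes may share reads. Columns of the other organs, 840 in number, were not used.

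All 84 brown fat libraries were fitted with 1 coefficient per time point by edgeR's quasi-likelihood test (edgeR 4.0.16, R 4.3.3) after filterByExpr and TMM scaling, and p-values were adjusted by Benjamini and Hochberg over all genes; 0.05 was the threshold. Each SE was obtained by dividing the fold change (log2) by the root of its F statistic. CPM use TMM factors. Depot differences came from fits of the 4-week and 0-day libraries of both depots. Marker sums, on log2 of CPM plus 0.1, were compared by two-sided exact permutation. Totals in brown fat ran from 9686196 to 22051868, so low genes are limited by counting error. No library pair in a group was a repeat (lowest chi-square per degree of freedom 9.28). Labels do not say which mice were caged together, so p-values measure the spread between samples, in brown fat as estimated over all 84 libraries. The main depot fits took the libraries of both organs as independent, and labels do not say whether the organs came from the same mice.

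The fits were tested on simulated counts with known changes. In both depot comparisons the share of false calls was above the threshold and most of the smallest changes were missed. Most 2-fold changes were also missed against inguinal fat, and many against epididymal fat, so counts of the depot comparisons are less reliable. In the main comparison many of the smallest changes were missed too, so a gene not called may still have changed. Samples of one replicate number deviated together, with correlations of 0.181 to 0.574 in all 6 pairs, although 4 of 6 matched their own number best; the labels do not say what a number shares. Alternatives were RLE size factors, no filter, DESeq2 1.42.0, voom with quality weights (limma 3.58.1), the 12 libraries alone, a replicate block, offsets for GC content and length, and leaving out libraries. Genes named were the 10 highest and 10 lowest called at a mean of at least 5 CPM, 2 members of each of 36 lists with the smallest p, the 4 per direction with the smallest p against each depot, and a fixed set of thermogenic, lipid and glucose genes; further list members were chosen after their values were seen, and some genes that the rule picks are not reported here. Members and lists were chosen with earlier results of these data known.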

Additional observations from a re-analysis of the deposited data

Results flagged for a closer look

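In each group of 6 the highest and lowest library of the genes named were set against the gap to the next, and chance marks about 1 in 20 groups. Of 4-week libraries, replicate 2 stood apart most often: it was highest for Ndufv1 (1652 CPM), Atp5b (11086 CPM), Cidea (3910 CPM), Cfd (2890 CPM), Hspe1 (658 CPM), Adipoq (1204 CPM), Angptl4 (846 CPM), Fh1 (1023 CPM), Idh3g (1555 CPM), Insig1 (314 CPM), Pparg (513 CPM) and Fkbp4 (366 CPM), and lowest for Lpl (3015 CPM). Replicate 3 of that group was highest for Il1b (10.6 CPM), Hsph1 (534 CPM), Hsp90aa1 (1760 CPM), Ryr2 (16.6 CPM), Hspa4l (216 CPM) and Chordc1 (91.4 CPM). At 0 days, replicate 6 was highest for Scd1 (35349 CPM), Cryab (65.2 CPM), Pdk4 (2505 CPM) and Ccl7 (0.884 CPM), replicate 4 was highest for Hspa4l (62.1 CPM), replicate 1 was lowest for Chordc1 (33.2 CPM), and replicate 2 was highest for Hoxc9 (0.102 CPM, with 2 counts in all 12 libraries).

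The 4-week change differed between brown and inguinal fat in 2665 genes and between brown and epididymal fat in 3565 genes, by the interaction in the fit of both depots. Against inguinal fat the genes with the smallest p were, upward in brown fat, Parm1 (1.76), Taf6l (1.14), Stip1 (1.59) and Abhd17c (1.38), and downward Mycbp2 (-1.49), Zbtb20 (-1.53), Rps6ka3 (-1.25) and Hipk2 (-3.06), as differences of log2 fold changes. Against epididymal fat they were upward Axin2 (1.95), Phc2 (0.99), Phf1 (0.96) and Egln1 (1.07), and downward Hipk2 (-3.68), Lctl (-3.32), Pdpr (-2.15) and Adra1a (-1.59). Mycbp2 changed by -0.21 in brown fat, where it was not called, and by 1.28 in inguinal fat.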

How the results depend on the processing

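No named gene changed sign where it was called. Leaving out 1 library gave 1507 to 1845 genes called at 4 weeks against 0 days (833 to 1040 higher, 674 to 824 lower), 715 to 1070 against 1 day (427 to 653 higher, 288 to 430 lower) and 1761 to 2294 from 4 to 12 weeks (920 to 1231 higher, 817 to 1063 lower). The differences between depots gave 2218 to 2583 (948 to 1160 and 1270 to 1453) against inguinal and 3152 to 3597 (1374 to 1711 and 1658 to 2099) against epididymal fat. Voom with quality weights gave 3138 (1706 higher, 1432 lower), 1871 (1037, 834) and 4424 (2148, 2276) calls in the first 3 comparisons. A change of at least 2-fold left 339. Without 4-week replicates 2 and 3 together, chosen after seeing the data, 516 genes were lower against 0 days, 548 were called against 1 day (340 higher, 208 lower) and 789 rose from 4 to 12 weeks. Fits of the 12 libraries alone gave 1636 calls against 0 days, 1354 of them shared with the main fit. Against 1 day they gave 541 (298 higher, 243 lower). Offsets for GC content and length gave 663 genes lower against 1 day and 1665 lower from 4 to 12 weeks, and 694 and 1674 with a replicate block added; the cause was not tested. The replicate block alone gave 2006 calls at 4 weeks against 0 days, 1910 of them shared, and of the calls named in the text it ended those of Hspe1 and Csf1r. Other settings ended more. Of 97 called genes that the naming rule picks, 68 kept their calls in all 23 settings. The 12 libraries alone ended the calls of Acadl, Adrb1, Angptl4, Cfd, Csf1r, Fkbp5, Hspa1a, Hspa1b, Il33, Irs1, Mrc1, Nr4a2, Prdm16, Scd1 and Sdf2l1. That fit did not test Ccl2, Ccl7, Cxcl1 and Il1b, so it neither kept nor ended their calls. Offsets for GC content and length ended those of Acadl, Acsl5, Adrb1, Dnajb9, Irs1, Mrc1, Phc2, Rps6ka3, Sdf2l1, Slc2a1 and Zbtb20. Voom ended those of Angptl4, Ccl2, Ccl7, Cxcl1, Fkbp5, Gdf15, Hspa1a, Hspa1b, Il33, Prdm16 and Slc2a1. No filter ended those of Acadl, Cfd, Csf1r, Hspe1, Mrc1, Prdm16, Sdf2l1 and Slc2a1, and RLE size factors those of Cfd and Hspe1. Without 0-day replicates 1 and 2 together Acsl5, Adipoq, Cfd, Dgat2, Dnajb9, Hspe1, Il33, Irs1, Lctl, Lep, Nr4a2, Pik3r1, Sdf2l1 and Slc2a1 were not called, and without 4-week replicates 2 and 3 together 26 of the genes named were not. Without 4-week replicate 2 and 0-day replicate 6 together 19 of the genes named were not called. Among them were Foxo1 (-0.92, adjusted p 0.0824), Klf15, Lpl, Pcx, Scd1 (-0.55, adjusted p 0.274) and Slc27a1. Low genes are limited by depth.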

Other observations

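Partners of HSP90 and HSP70, chosen after their values were seen, were also higher at 4 weeks than at 0 days without overlap of the groups. Ahsa1, which activates HSP90, averaged 158 ± 24.6 CPM at 4 weeks and 70.0 ± 5.32 CPM at 0 days (SD, n = 6 each), a log2 fold change of 1.18 ± 0.17. Fkbp4 (0.99 ± 0.16), Cacybp (1.00 ± 0.19), Hspa4l (1.75 ± 0.20), Hspb8 (1.67 ± 0.20) and the collagen chaperone Serpinh1 (1.09 ± 0.16) rose too. Serpinh1 averaged 517 ± 124 CPM at 4 weeks and 243 ± 44.9 CPM at 0 days, while its clients Col1a1 and Col3a1 fell. P4ha1, a subunit of the enzyme that hydroxylates collagen, rose by 1.77 ± 0.21.

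The following genes were also chosen after their values were seen. Ucp2, a relative of Ucp1, averaged 36.0 ± 4.91 CPM at 4 weeks and 71.8 ± 13.3 CPM at 0 days (-0.996 ± 0.13), and Car5b, a mitochondrial carbonic anhydrase, 29.9 ± 2.79 CPM at 4 weeks and 62.0 ± 8.78 CPM at 0 days (-1.05 ± 0.10). Fgf1, a growth factor of adipose tissue, averaged 30.95 ± 3.95 CPM at 4 weeks and 10.2 ± 2.05 CPM at 0 days (1.602 ± 0.16). Of glucocorticoid-induced genes, Tsc22d3 had 30.2 to 71.2 CPM at 4 weeks; at 0 days replicates 1 and 2 had 60.3 and 61.2 CPM and the other four 123 to 147 CPM. Trp53inp1 split the 0-day libraries in the same way, with 20.4 and 22.5 CPM in replicates 1 and 2 and 61.9 to 92.6 CPM in the others.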
